A study of Mus musculus with 8 samples.

Results

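T cells from the pancreas of NOD mice given PPCA were compared with those of mice given vehicle on day 3, across genes and separately in CD4 and CD8 cells. NOD is a mouse strain that develops autoimmune diabetes when T cells attack the insulin-producing islets of the pancreas. Cells with at least 500 detected genes and under 10% of their transcripts from the mitochondrial genome were kept, and T cells had at least 2 transcripts over Cd3d, Cd3e, Cd3g, Trac, Trbc1 and Trbc2. CD4 cells then had at least 1 transcript of Cd4 and none of Cd8a or Cd8b1, and CD8 cells the reverse. This gave 13479 CD4 and CD8 cells of the 19610 cell barcodes in both libraries of the day, out of 80470 barcodes in the 8 libraries of the series. The vehicle library held 3751 CD4 and 3934 CD8 cells, and the PPCA library 2737 and 3057.

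Both groups were labelled as female NOD mice with spontaneous diabetes of new onset, 3 to 4 months old by one label and 3 to 5 by the treatment protocol, with a blood glucose of 200 to 300 mg/dl. PPCA stands for nutlin-3 at 50 mg/kg with MK-1775 at 25 mg/kg, and the vehicle was 30% ethanol, 5% Tween 20 and 65% PEG300. Treatment was daily, with the harvest on the next day. The day in the name was read as the harvest day, and how many doses preceded it is not stated outright. CD45+ CD3+ TCRβ+ cells were sorted and frozen, and libraries were made with the 10x Genomics 3′ chemistry. Each captured transcript carries a random tag, its UMI, so that copies made by PCR are counted once. The number of mice behind each library is not given. There was 1 library per group, so no difference below has a test or a replicate check, and p-values are not given.

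As background, nutlin-3 keeps MDM2 from binding p53, which leaves more p53 free to act on genes of growth arrest and death, and MK-1775 inhibits WEE1, a kinase that holds cells back from mitosis. The type I interferon response is a program that nearly all cells can start. Interferon binds IFNAR1 and IFNAR2, the kinases JAK1 and TYK2 pass the signal on, and a complex that holds STAT2 and IRF9 switches on genes at an element whose core reads GAAA, any 2 bases, and GAAA again. In NOD mice and in human type 1 diabetes, interferon signalling in and around the islets is a long-studied feature of the disease.

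The cells gave 21101489 UMIs in CD4 and 25759571 UMIs in CD8 cells under vehicle, and 13170184 and 16573298 UMIs under PPCA. Levels are in CPM: the cells of a gate were pooled, and a gene's UMIs were scaled to a pool of 1000000. Differences are log2 ratios of PPCA to vehicle. Brackets hold exact 95% Poisson intervals of a CPM or exact Clopper-Pearson intervals of a share. They cover counting error only, not differences between mice or captures. The median cell was deeper under vehicle, with 5310 UMIs against 4565 in CD4 and 6264 against 5157 in CD8 cells. The summed T cell markers were at 6100 and 6729 CPM in CD4 and 5497 and 6046 CPM in CD8 cells under vehicle and PPCA. Markers of B and myeloid cells summed to 118 to 230.3 CPM in each gate of both libraries. Most of that was Ighm, at 196 to 224 CPM, and Cst3, at 112 to 125 CPM. Lyz2, the lysozyme of macrophages, had 46 and 3 UMIs under vehicle and PPCA in CD4 and 42 and 5 in CD8 cells, and Igkc, the kappa light chain of B cells, 69 and 9 and then 31 and 42. Other myeloid markers had no common direction. In CD4 and CD8 cells the log2 ratios were -0.36 and -0.71 for Cd68, 0.42 and 0.44 for Itgam, and -0.64 and 1.07 for Cd74. The part of these transcripts in the other differences was not tested. Markers of NK and red blood cells summed to at most 11.4 CPM. Both day 3 libraries had Y-linked transcripts (Ddx3y at 64.3 and 83.4 CPM over T cells) and Xist at under 1 CPM, which goes against the label of female mice but does not separate the libraries. They shared 17 barcodes, or 0.208% of the smaller one. CD8 cells were 51.2% (50.1 to 52.3) of gated cells under vehicle and 52.8% (51.5 to 54.1) under PPCA.

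A few very abundant transcripts differed between these libraries, and CPM of all other genes shift with them. Gm42418, a locus that overlaps ribosomal RNA sequence, took 47953 CPM under vehicle and 11024 under PPCA in CD4 cells, and mitochondrially encoded genes 44600 and 30485 CPM. Over genes that reached 20 CPM in either library, the median gene was 0.18 higher under PPCA in CD4 and 0.19 in CD8 cells on the log2 scale. With Gm42418, AY036118, Lars2 and mitochondrially encoded genes left out of the total, a step added after seeing the data, it was 0.0996 and 0.102 higher. Where a median or count is also given after centring, this offset was subtracted first. At 1.5-fold, 176 of 5390 genes (3.27%) were higher and 22 (0.408%) lower under PPCA in CD4 cells, and 147 of 5259 (2.8%) and 18 (0.342%) in CD8 cells. After centring on the median gene, 47 genes (0.872%) were higher and 51 (0.946%) lower in CD4 cells, and 37 (0.704%) and 47 (0.894%) in CD8 cells. Scaling by TMM, a method that trims extreme genes, gave 51 higher and 50 lower in CD4 and 37 and 46 in CD8 cells. Of the genes 1.5-fold higher before centring, 83 were so in both gates, which is 47.2% of the CD4 and 56.5% of the CD8 genes, and 16 of the lower ones, which is 72.7% and 88.9%. Before centring, vehicle libraries of different days were farther apart than this. Between those of days 3 and 2, 8.65% of genes in CD4 and 9.43% in CD8 cells were 1.5-fold apart in either direction. Between days 4 and 3 these shares were 10.8% and 10.2%, and between days 4 and 2 they were 16.9% and 16.6%. Most of the genes apart between days 3 and 2 were lower on day 3. The shares were 8.33% and 9.12% lower, and 0.32% and 0.306% higher. From day 3 to day 4, 8.03% and 8.19% were higher and 2.74% and 2.02% lower. An offset between vehicle libraries was not taken out of these shares. The PPCA and vehicle libraries had 3.67% and 3.14% of genes that far apart on day 3, 3.95% and 4.62% on day 2, and 5.07% and 3.77% on day 4.

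**Figure D1:**
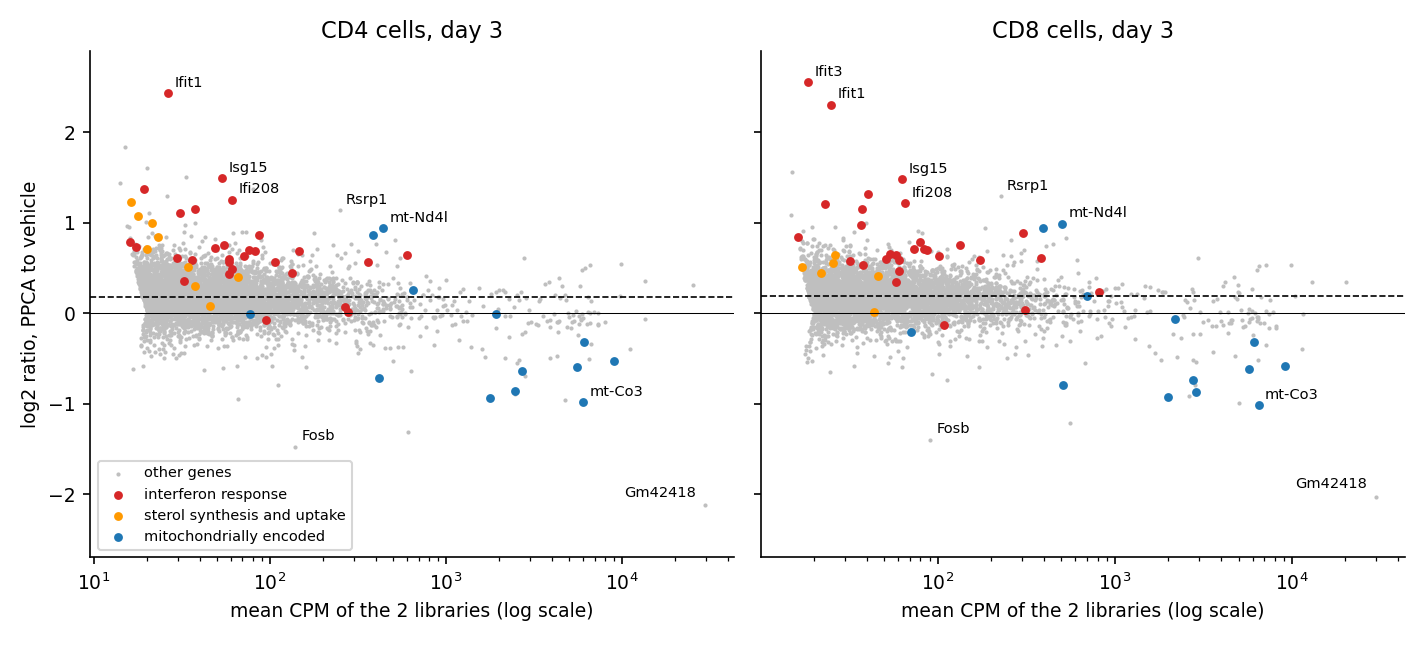
The log2 ratio of PPCA to vehicle (vertical axis) against the mean CPM of both day 3 libraries (horizontal, log scale) for each gene that reached 20 CPM in either library, in CD4 (left) and CD8 cells (right). The solid line marks 0 and the dashed line the median gene, at 0.18 and 0.19. Coloured points are 3 gene lists: most interferon response genes lie above the dashed line and most mitochondrially encoded genes below it, with Ifit1 highest in CD4 cells at 2.43.

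The interferon response genes stood higher under PPCA than under vehicle in both gates. The list held 48 genes, of which 46 averaged at least 1 CPM, and their median log2 ratio was 0.72 in CD4 and 0.78 in CD8 cells, or 0.53 and 0.60 after centring. Of these 46 genes, 42 in CD4 and 44 in CD8 cells lay above the median gene. Of 29 members with at least 20 CPM in either library, 19 were 1.5-fold higher in CD4 cells and 22 in CD8 cells. Of all genes, 3.27% and 2.8% were. Some members passed that filter only through the PPCA library, such as Ifit1 in both gates and Ifit3 and Rtp4 in CD8 cells. For such members the filter favoured a call of higher, and it was the same for all genes. None of the 29 was 1.5-fold lower in either gate, where 0.408% and 0.342% of all genes were. After centring 8 and 11 of 29 were 1.5-fold higher, where 0.872% and 0.704% of all genes were. The summed level of the list was 2519 CPM under vehicle and 3710 under PPCA in CD4 cells, and 2849 and 4185 in CD8 cells.

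This core lay in the 250 bases before the start of 19 of the 36 list genes with a promoter in the RefSeq table (52.8%), searched on both strands with overlaps allowed, and in 936 of all 27025 genes (3.46%). Of the 20 list genes there that were 1.5-fold higher in a gate, 11 had it (55%), near the share of the whole list. Of genes 1.5-fold higher in either gate that were not on the list, 10 of 166 had it (6.02%). These were Mitd1, Socs1, Tgtp1, Tgtp2, Ddx60, Ccdc186, Clec2d, Phf11b, Prss2 and Trmt10a. A match describes the letters and is not shown to be a bound site. The promoters below belong to 5 list genes whose levels are described next, and show where the core lies in each. They are written 5′ to 3′ in the direction of the gene and ending at its start, from RefSeq on GRCm38.p6. Capitals mark the core, which reads TTTC, any 2 bases, TTTC where it sits on the other strand.
Isg15, chr4:156200819-156201068, minus strand: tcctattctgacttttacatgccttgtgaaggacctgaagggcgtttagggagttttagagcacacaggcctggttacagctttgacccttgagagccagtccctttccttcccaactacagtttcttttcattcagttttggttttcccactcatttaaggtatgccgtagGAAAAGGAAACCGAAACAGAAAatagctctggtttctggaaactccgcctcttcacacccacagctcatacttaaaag
Ifit1, chr19:34640639-34640888, plus strand: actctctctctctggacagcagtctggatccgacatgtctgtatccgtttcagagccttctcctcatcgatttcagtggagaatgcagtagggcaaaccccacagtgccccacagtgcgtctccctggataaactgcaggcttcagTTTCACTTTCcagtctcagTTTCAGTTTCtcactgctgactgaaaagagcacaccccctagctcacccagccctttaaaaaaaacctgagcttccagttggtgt
Ifit3, chr19:34583279-34583528, plus strand: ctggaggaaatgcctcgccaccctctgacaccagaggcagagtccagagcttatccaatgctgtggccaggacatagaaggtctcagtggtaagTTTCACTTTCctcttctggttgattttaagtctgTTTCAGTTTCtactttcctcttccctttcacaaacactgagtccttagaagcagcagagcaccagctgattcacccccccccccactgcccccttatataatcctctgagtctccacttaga
Ifi208, chr1:173673415-173673664, plus strand: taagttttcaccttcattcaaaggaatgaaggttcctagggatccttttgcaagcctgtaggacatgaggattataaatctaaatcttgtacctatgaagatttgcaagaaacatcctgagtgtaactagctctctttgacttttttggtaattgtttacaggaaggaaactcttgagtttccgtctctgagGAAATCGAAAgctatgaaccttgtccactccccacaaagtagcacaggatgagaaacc
Rsad2, chr12:26456453-26456702, minus strand: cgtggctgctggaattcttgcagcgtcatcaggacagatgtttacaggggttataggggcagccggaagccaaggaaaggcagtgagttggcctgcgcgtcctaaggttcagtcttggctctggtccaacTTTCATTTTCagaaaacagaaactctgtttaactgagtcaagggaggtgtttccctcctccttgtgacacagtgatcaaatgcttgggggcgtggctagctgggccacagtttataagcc
Isg15 carried 3 overlapping matches between 78 and 66 bases before the start, Ifit1 and Ifit3 carried 2 each, and Ifi208 and Rsad2 carried 1 each. Irf7, which was also higher under PPCA, had 0 in this window.

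Isg15 encodes a ubiquitin-like protein that is attached to other proteins after interferon. It was at 28.0 CPM (25.8 to 30.4) under vehicle and 79.0 (74.2 to 83.9) under PPCA in CD4 cells, a log2 ratio of 1.5. In CD8 cells it was at 33.3 (31.1 to 35.6) and 93.0 CPM (88.4 to 97.7), a ratio of 1.48. Each PPCA value lay above all 3 vehicle libraries of days 2 to 4, which spanned 19.9 to 37.0 CPM in CD4 and 25.6 to 41.8 in CD8 cells. Usp18, the protease that removes ISG15 and damps the receptor, was at 5.78 and 17.8 CPM in CD4 (ratio 1.63) and 6.33 and 17.7 CPM in CD8 cells (1.49).

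Ifit1 and Ifit3 encode proteins that bind viral RNA. Among members with at least 20 CPM, Ifit1 had the largest ratio in CD4 cells, and Ifit3 and then Ifit1 in CD8 cells. Each of these reached 20 CPM only under PPCA. Ifit1 was at 8.29 CPM (7.11 to 9.62) under vehicle and 44.8 (41.3 to 48.6) under PPCA in CD4 cells, a ratio of 2.43, and at 8.46 and 41.8 CPM in CD8 cells, a ratio of 2.30. Ifit3 was at 5.40 (4.54 to 6.37) and 31.6 CPM (29.0 to 34.4) in CD8 cells, a ratio of 2.55, and at 2.84 and 16.4 CPM in CD4 cells, a ratio of 2.53. The PPCA values of both genes were above the range of the 3 vehicle libraries in both gates, and the intervals of the paired libraries did not overlap. Rsad2, which encodes the antiviral enzyme viperin, was nearly silent under vehicle, with 4 UMIs in CD4 and 8 in CD8 cells, against 60 and 97 UMIs under PPCA. Its ratios were 4.59 and 4.24. Among the sensors of double-stranded RNA that activate RNase L, Oas2 was at 1.04 and 5.39 CPM in CD4 cells and Oas3 at 3.13 and 8.35 CPM. Oas1g had 0 UMIs in both gates of both libraries, and Ifi44 had 1 UMI under vehicle and 3 under PPCA in CD8 cells.

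Of the factors that carry the signal, Irf7, which amplifies interferon production, was at 23.4 CPM (21.3 to 25.5) under vehicle and 51.7 (47.9 to 55.7) under PPCA in CD4 cells, and at 23.3 and 51.6 CPM in CD8 cells, with a ratio of 1.15 in each gate. Irf9 was at 46.5 and 70.6 CPM in CD4 and 40.5 and 61.4 CPM in CD8 cells, ratios of 0.60 in both. Stat2 was at 13.1 and 21.7 CPM in CD4 and 10.9 and 18.7 CPM in CD8 cells, ratios of 0.73 and 0.78. The RNA sensor Ddx58 was at 47.4 and 70.2 CPM in CD4 and 45.7 and 71.0 CPM in CD8 cells, ratios of 0.56 and 0.64.

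Several Schlafen and PYHIN genes, 2 mouse families with roles in cell growth and in sensing DNA, were among the higher genes. Slfn5 was at 61.2 and 111 CPM in CD4 cells, a ratio of 0.86, and at 23.1 (21.3 to 25.0) and 57.5 CPM (53.9 to 61.3) in CD8 cells, a ratio of 1.32. Slfn8 had ratios of 0.69 and 0.78 in CD4 and CD8 cells, and Slfn1 of 0.45 and 0.63. Ifi208 was at 36.1 (33.5 to 38.7) and 86.0 CPM (81.1 to 91.2) in CD4 cells and 39.5 and 91.7 CPM in CD8 cells, ratios of 1.25 and 1.22. Ifi209 (0.75 and 0.66), Ifi214 (0.72 and 0.71) and Ifi203 (0.57 and 0.61) had smaller ratios.

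Other members past 1.5-fold included Xaf1, a promoter of cell death, with ratios of 1.11 in CD4 and 0.97 in CD8 cells, and Rtp4, a chaperone for receptors, with 1.37 in CD4 cells and, at 14.0 and 32.3 CPM, a like ratio in CD8 cells. Ifi27l2a, a small membrane protein, was at 468 and 732 CPM in CD4 (0.64) and 214 and 396 CPM in CD8 cells (0.89). The virus tether Bst2 was at 86.7 and 128 CPM in CD4 cells (0.56) and 99.8 and 168 CPM in CD8 cells (0.75). Trim30a (0.70 in both gates), Samd9l (0.68 and 0.59), Parp14 (0.63 and 0.71), Parp9 (0.61 and 0.58), Isg20 (0.78 and 0.84), Zbp1 (0.49 and 0.59) and Lgals3bp (0.59 and 0.47) were the other members with at least 20 CPM that passed 1.5-fold in a gate. Of members under 20 CPM, among others, Ifit3b (2.62 and 2.57), Oasl1 (2.08 and 2.35), Cmpk2 (1.38 and 1.75), Oas1a (1.43 and 1.51), Oasl2 (1.18 and 1.41) and Ifi206 (1.39 and 1.30) had ratios past 1.5-fold in both gates on 11 to 241 UMIs per library. Members near or under the median gene were Ifi27, at 97.2 and 92.3 CPM in CD4 and 114 and 104 CPM in CD8 cells, and Ly6a, at 261 and 274 CPM in CD4 and 753 and 886 CPM in CD8 cells. Rnf213, Mitd1, Gm20559 and Trim34a are not on the list and had ratios of 0.88, 0.90, 0.97 and 0.95 in CD4 cells.

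**Figure D2:**
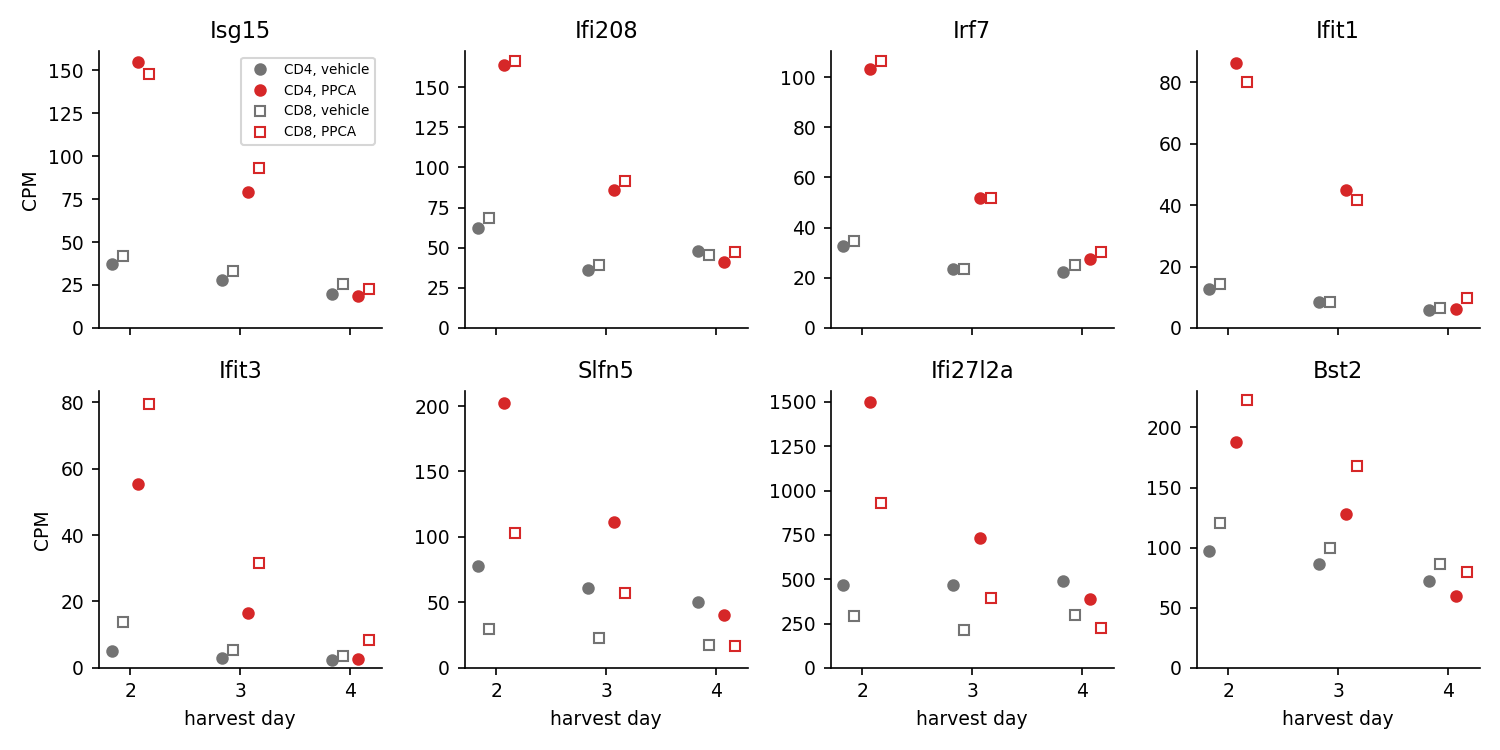
CPM (vertical axis, from 0) of 8 interferon response genes by harvest day (horizontal) in 6 libraries, 1 per arm and day, with vehicle in grey and PPCA in red, CD4 cells as filled circles and CD8 cells as open squares. On day 3 the PPCA points lie above the vehicle points in each panel, for example Isg15 at 79.0 against 28.0 CPM in CD4 cells.

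The difference was spread over the cells of each gate and was largest in their upper tail. After each cell was thinned to 2000 UMIs, which left out 19 and 29 CD4 cells and 31 and 42 CD8 cells of the vehicle and PPCA libraries as too shallow, the mean number of interferon response UMIs per cell was 5.02 under vehicle and 7.56 under PPCA in CD4 cells, and 5.70 and 8.34 in CD8 cells. The median cell had 4 and 5 UMIs in CD4 and 5 and 6 in CD8 cells. At the 90th percentile the numbers were 9 and 15 in CD4 and 10 and 16 in CD8 cells, and at the 99th percentile 18 and 38 in CD4 and 19.0 and 41.9 in CD8 cells. Cells with at least 3 such UMIs were 77.3% (76.0 to 78.7) under vehicle and 84.1% (82.7 to 85.5) under PPCA in CD4 cells, and 83.3% (82.1 to 84.5) and 89.4% (88.2 to 90.4) in CD8 cells. Without thinning these shares were 98.1% and 97.9% in CD4 and 99.2% and 99.1% in CD8 cells, so the order of the shares shows only at equal depth. Between 16.7% and 28.3% of cells had 2 or 3 such UMIs and so lay next to the limit, which makes it a range and not a cell type. The cell with the most Isg15 held between 1.04% and 1.54% of its UMIs in each gate and library.

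**Figure D3:**
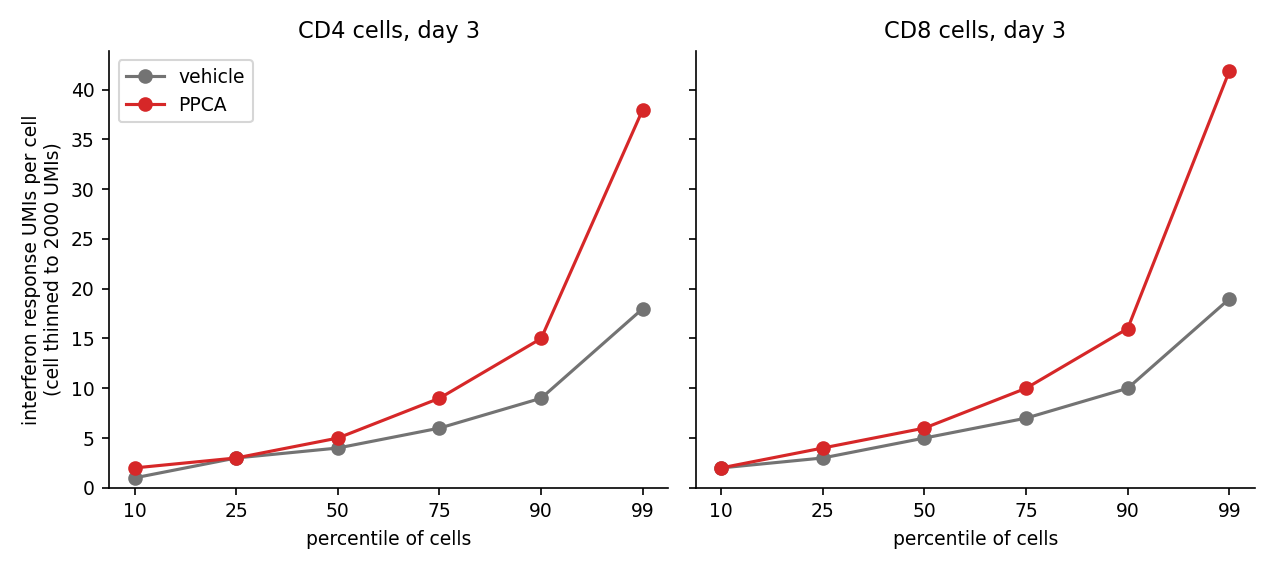
Interferon response UMIs per cell after thinning to 2000 UMIs (vertical axis, from 0) at 6 percentiles of cells (horizontal) in the day 3 libraries, vehicle in grey and PPCA in red, CD4 cells left and CD8 cells right. The lines run close at the median (4 against 5 UMIs in CD4 cells) and part at the 99th percentile (18 against 38).

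Within the gates the summed list was also higher under PPCA in cells with and without a transcript of Foxp3 or of Ccl5. CD4 cells with a transcript of Foxp3, the factor of regulatory T cells, were at 3587 CPM (3479 to 3696) under vehicle and 4384 (4223 to 4549) under PPCA, a ratio of 0.29 that rests on 204 and 134 cells. Of 35 members that averaged at least 10 CPM there, 31 had a ratio above 0, with a median of 0.45. CD4 cells without a Foxp3 transcript, 94.6% and 95.1% of the gate, were at 2456 and 3676 CPM, a ratio of 0.58, with a median of 0.67 and 31 of 33 members above 0. In CD8 cells with a transcript of the effector chemokine Ccl5 the list was at 2871 (2825 to 2917) and 4663 CPM (4585 to 4742), a ratio of 0.70 over 781 and 511 cells, with a median of 0.90 and 36 of 37 members above 0. CD8 cells without one, 80.1% and 83.3% of the gate, were at 2844 and 4083 CPM, a ratio of 0.52, with a median of 0.64 and 33 of 34 members above 0. The median gene was at 0.12 in the cells with Foxp3 and at 0.19 in the other 3 sets of cells. Over the whole gates, 81.8% of genes with at least 20 CPM in CD4 and 83.3% in CD8 cells had a ratio above 0. The 31 of 35 members in cells with Foxp3 is near that share. Whether the subsets differ from each other in response was not tested.

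Other parts of the interferon system stood closer to the median gene. The list of genes that respond foremost to interferon gamma, with the guanylate-binding proteins and immunity-related GTPases that attack the vacuoles of intracellular parasites, had medians of 0.40 and 0.47 in CD4 and CD8 cells, or 0.22 and 0.29 after centring. With at least 20 CPM, 3 of 11 members in CD4 and 4 of 14 in CD8 cells were 1.5-fold higher and 0 lower, where 3.27% and 2.8% of all genes were higher. After centring 0 and 1 were, against 0.872% and 0.704%. Gbp8 was at 33.0 and 51.3 CPM in CD4 and 41.4 and 67.2 CPM in CD8 cells, and Gbp6 at 20.0 and 31.4 CPM and 28.4 and 44.7 CPM. Socs1, a brake on JAK kinases, was at 33.6 and 52.5 CPM in CD4 and 33.9 and 45.9 CPM in CD8 cells. Gbp2 was lower under PPCA, at 34.2 and 27.5 CPM in CD4 and 51.8 and 43.6 CPM in CD8 cells. The 20 genes of antigen presentation on MHC class I had medians of 0.12 and 0.14, or -0.06 and -0.04 after centring, and 1 of the 20, H2-Q4, passed 1.5-fold in each gate, which is near the 3.67% and 3.14% of all genes. It was at 118 and 185 CPM in CD4 and 135 and 208 CPM in CD8 cells. B2m, the light chain of class I, was at 2200.2 and 2151 CPM in CD4 and 2508 and 2443 CPM in CD8 cells.

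Among ligands, receptors and kinases, the receptor chains Ifnar1 and Ifnar2 were at 40.9 and 49.7 CPM and at 45.8 and 57.4 CPM in CD4 cells, and Jak1 at 426 and 460.4 CPM. The median of the 11 genes that averaged at least 1 CPM was 0.27 in CD4 and 0.17 in CD8 cells, next to 0.18 and 0.19 for all genes. Ifngr2, a chain of the interferon gamma receptor, was 1.5-fold higher in both gates, at 27.0 and 43.3 CPM in CD4 and 16.3 and 24.7 CPM in CD8 cells. Its PPCA levels lay within the range of the vehicle libraries of days 2 to 4, 27.0 to 64.6 CPM in CD4 and 16.3 to 38.5 CPM in CD8 cells. The ligand Ifng was at 5.54 (4.59 to 6.65) and 5.69 CPM in CD4 cells and at 20.5 and 15.02 CPM in CD8 cells, a ratio of -0.45. This list was added after values were seen.

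The median of a list of sterol synthesis and uptake genes lay above the median gene in both gates. This list of 24 genes, chosen after values were seen, covers the mevalonate pathway, which cells switch on through SREBP2 when cholesterol is short. All 24 genes in CD4 and 23 of 24 in CD8 cells had a ratio above 0, as did 75.6% and 77.9% of all genes that averaged at least 1 CPM, and 19 and 22 lay above the median gene. The medians were 0.60 and 0.50, or 0.42 and 0.32 after centring. Of members with at least 20 CPM, 5 of 9 in CD4 and 1 of 6 in CD8 cells were 1.5-fold higher. Of all genes, 3.27% and 2.8% were. After centring, 4 and 0 members were, against 0.872% and 0.704% of all genes. The enzyme Cyp51 was at 9.71 and 22.8 CPM in CD4 (1.23) and 6.13 and 14.5 CPM in CD8 cells (1.25), and Idi1 at 8.25 and 19.4 CPM (1.24) and 6.17 and 15.7 CPM (1.35). Msmo1 (0.99 and 0.80), Hmgcs1 (0.84 and 0.44) and Sqle (1.12 and 1.04) had the same direction. Ebp was level with vehicle at 44.4 and 47.1 CPM in CD4 and 43.2 and 43.7 CPM in CD8 cells. The vehicle library of day 3 was itself low for this list, at 354 CPM in CD4 cells against 506 CPM on day 2 and 379 CPM on day 4, and the PPCA library was at 521 CPM. In CD8 cells the vehicle levels were 365, 281 and 307 CPM on days 2, 3 and 4, and the PPCA level of day 3 was 394 CPM.

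Target genes of p53 lay near the median gene. Of p53 target genes, 0 of 11 members with at least 20 CPM in CD4 and 0 of 12 in CD8 cells were 1.5-fold higher or lower, where 3.67% and 3.14% of all genes were, and the medians were 0.21 and 0.27, or 0.03 and 0.09 after centring. Cdkn1a, which encodes the arrest protein p21 and is a classic p53 target, was at 0.758 CPM (0.433 to 1.23) under vehicle and 0.759 (0.364 to 1.40) under PPCA in CD4 cells, from 16 and 10 UMIs. In CD8 cells it had 10 and 4 UMIs. Mdm2, the target of nutlin-3 and itself switched on by p53, was at 35.3 (32.8 to 37.9) and 47.2 CPM (43.6 to 51.1) in CD4 cells and 33.3 and 41.3 CPM in CD8 cells, ratios of 0.42 and 0.31. Ccng1 was at 42.7 and 46.6 CPM in CD4 and 34.2 and 36.8 CPM in CD8 cells. The early-response target Btg2 was at 371 and 283 CPM in CD4 and 245 and 198 CPM in CD8 cells, and Bax, which opens mitochondria in cell death, at 119 and 128 CPM and 121 and 132 CPM. Trp53 itself was at 108 and 130 CPM in CD4 and 121 and 146 CPM in CD8 cells. Perp, singled out after its values were seen, had 3 UMIs under vehicle and 43 under PPCA in CD8 cells, of which 40 lay in 1 cell.

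Of cell cycle genes that averaged at least 1 CPM, 6 of 24 in CD4 and 10 of 20 in CD8 cells had a ratio above 0, against 75.6% and 77.9% of all such genes, and 3 and 5 lay above the median gene. Wee1, the target of MK-1775, was at 2.37 and 2.20 CPM in CD4 and 1.75 and 1.69 CPM in CD8 cells, from 28 to 50 UMIs. Mki67, a marker of dividing cells, had 139 UMIs under vehicle and 14 under PPCA in CD4 cells, or 6.59 CPM (5.54 to 7.78) and 1.06 (0.581 to 1.78), a ratio of -2.63, found in 43 and 11 cells. In CD8 cells it had 55 and 19 UMIs, or 2.14 (1.61 to 2.78) and 1.15 CPM (0.690 to 1.79). Birc5, a survival protein of mitosis, had 99 and 5 UMIs in CD4 and 38 and 4 in CD8 cells. Pcna, the sliding clamp of DNA polymerase, was at 73.9 and 82.1 CPM in CD4 and 66.9 and 76.7 CPM in CD8 cells, and Mcm6, a subunit of the replicative helicase, at 27.8 and 27.4 CPM and 32.5 and 35.1 CPM. Of the cell cycle members with at least 20 CPM, 0 of 7 in CD4 and 0 of 6 in CD8 cells passed 1.5-fold, which at this number is near the 3.67% and 3.14% of all genes, and the list medians were -0.21 and -0.01, or -0.40 and -0.20 after centring. DNA damage response genes had medians of 0.16 and 0.18, next to the median gene, with 0 of 13 and 0 of 10 past 1.5-fold, again near the share of all genes.

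**Figure D4:**
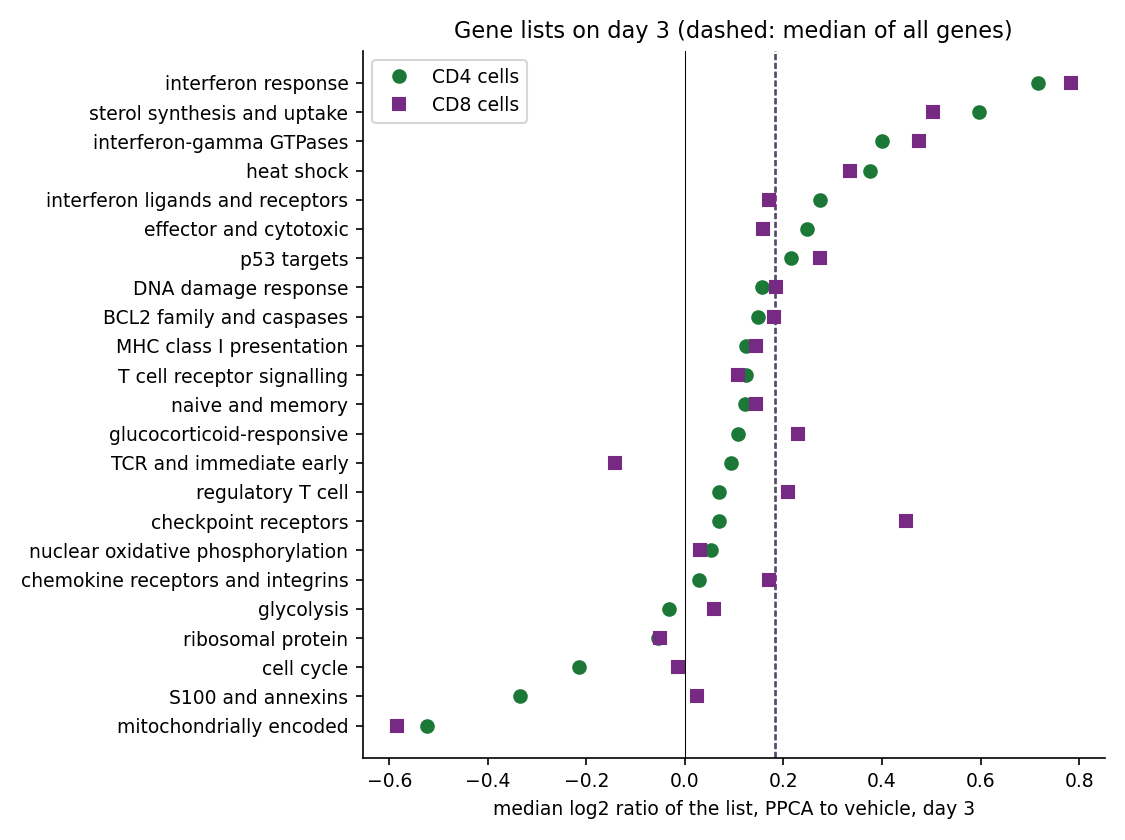
Median log2 ratio of PPCA to vehicle on day 3 (horizontal axis) over the members of each gene list with a mean of at least 1 CPM, in CD4 (circles) and CD8 cells (squares). The dashed lines mark the median gene of each gate (0.18 and 0.19) and the solid line 0. The interferon response stands at the top (0.72 and 0.78), ahead of the sterol list (0.60 and 0.50), and mitochondrially encoded genes at the bottom (-0.52 and -0.59).

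Stress and activation genes differed in part. Of heat shock genes, whose products fold proteins, 2 of 11 in CD4 and 3 of 11 in CD8 cells were 1.5-fold higher. Of all genes, 3.27% and 2.8% were. After centring, 1 and 0 heat shock genes were, where 0.872% and 0.704% of all genes were. The co-chaperone Dnaja1 was at 298 and 504 CPM in CD4 and 306 and 511 CPM in CD8 cells, ratios of 0.76 and 0.74, and Dnajb1 at 46.8 and 80.2 CPM and 48.4 and 74.1 CPM. For both genes the day 3 vehicle library was the lowest of the 3 vehicle libraries, and the PPCA level lay within their range in both gates. In CD4 cells that range was 298 to 563 CPM for Dnaja1 and 46.8 to 117 CPM for Dnajb1. Hspa8, the constitutive HSP70, was at 880.3 and 1135 CPM in CD4 cells. Of the inducible HSP70 genes, both under 20 CPM and named after their values were seen, Hspa1b had 7 and 40 UMIs in CD4 and 7 and 36 in CD8 cells, ratios of 3.19 and 3.00. Hspa1a had 18 and 42 UMIs and 19 and 45 UMIs, ratios of 1.90 and 1.88. The day 3 vehicle library was the lowest of the 3 vehicle libraries for both genes, and Hspa1b was at 2.49 and 2.25 CPM in CD4 cells of those of days 2 and 4, against 0.332 and 3.04 CPM on day 3. The heat shock medians were 0.38 and 0.33, or 0.19 and 0.15 after centring. Among immediate early genes, switched on within minutes by receptor signals or handling, Fosb was at 206 CPM (199 to 212) and 73.9 (69.3 to 78.7) in CD4 cells and 131 and 49.8 CPM in CD8 cells, ratios of -1.48 and -1.40. Both PPCA values lay under the lowest vehicle library of the 3 days. Jun was at 596 and 413 CPM in CD4 and 375 and 271 CPM in CD8 cells, and Tnfaip3, a brake on NF-κB, at 77.9 and 51.9 CPM in CD4 cells. Myc, a driver of growth, was 1.5-fold higher in CD4 cells, at 39.5 and 60.5 CPM. With at least 20 CPM, 1 of 22 members in CD4 cells was 1.5-fold higher and 2 were lower, and in CD8 cells 0 and 1 of 21. Of all genes, 3.27% and 2.8% were higher and 0.408% and 0.342% lower. After centring, 0 members were higher and 4 and 3 lower. Of all genes, 0.872% and 0.704% were then higher and 0.946% and 0.894% lower. The medians of the immediate early list were 0.09 and -0.14, or -0.09 and -0.33 after centring. Fos and Cd69, the highest of the rest, were at 342 and 275 CPM and at 600.3 and 464 CPM in CD4 cells.

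The lists of T cell state held 0 or 1 members per gate that had at least 20 CPM and were 1.5-fold apart before centring, where 3.67% of all genes in CD4 and 3.14% in CD8 cells were. Of S100 proteins and annexins, marks of memory and effector cells, 1 of 11 members in CD4 and 0 of 12 in CD8 cells was 1.5-fold lower and 0 were higher, and the medians were -0.33 and 0.02, or -0.52 and -0.16 after centring. After centring, 4 of 11 in CD4 cells (S100a4, S100a6, Lgals1 and Vim) and 0 of 12 in CD8 cells were 1.5-fold lower, where 0.946% and 0.894% of all genes were. S100a4 was at 87.1 (83.2 to 91.2) and 45.0 CPM (41.5 to 48.8) in CD4 cells, a ratio of -0.95, and the PPCA level was within the range of the 3 vehicle libraries, 43.8 to 105 CPM. Of effector and cytotoxic genes, 0 of 5 in CD4 and 1 of 12 in CD8 cells passed, the chemokine Xcl1 at 31.9 and 48.6 CPM. Ccl5 was at 972 and 1213 CPM in CD8 cells and Nkg7, a granule protein, at 624 and 615 CPM. Naive and memory genes had 0 of 16 and 1 of 17 past 1.5-fold, the gut-homing receptor Ccr9 at 77.3 and 123 CPM in CD8 cells. The transcription factor Lef1 was at 772 and 854 CPM and Tcf7 at 490.4 and 478 CPM in CD4 cells, which are near the median gene. In CD8 cells the checkpoint receptor Cd160 was at 13.7 and 21.1 CPM and the chemokine receptor Cxcr4 at 24.1 and 40.2 CPM, the only members of their lists past 1.5-fold among those with at least 20 CPM. Under that level in CD8 cells, the checkpoint receptor Ctla4 had 227 and 260 UMIs, or 8.81 and 15.7 CPM. Regulatory T cell, T cell receptor signalling, BCL2 family, glucocorticoid-responsive, glycolysis and nuclear oxidative phosphorylation genes had 0 members past 1.5-fold in either gate among those with at least 20 CPM, and medians of -0.03 to 0.23, or -0.21 to 0.05 after centring. Some members under that level passed it, such as Tnfrsf9 in CD8 cells with 127 and 137 UMIs (0.75) and Dusp4 in CD4 cells with 119 and 45 UMIs (-0.72).

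The lower genes were led by abundant transcripts of ribosomes and mitochondria. Gm42418 made up a median of 4.69% of the UMIs of a CD4 cell under vehicle, with the middle 90% of cells from 2.58% to 7.71%, and 1.03% under PPCA, from 0.582% to 1.87%. In CD8 cells the medians were 4.62% and 1.07%. Nearly all cells of the libraries were thus apart for this transcript. Lars2, the mitochondrial leucyl-tRNA synthetase, was at 865 and 349 CPM in CD4 and 783 and 338 CPM in CD8 cells. Of the 13 mitochondrially encoded genes, which make subunits of the respiratory chain, 6 in CD4 and 7 in CD8 cells were 1.5-fold lower, where 0.408% and 0.342% of all genes were, and 2 were 1.5-fold higher in each, where 3.27% and 2.8% were. Their medians were -0.52 and -0.59, or -0.71 and -0.77 after centring. The cytochrome oxidase subunit mt-Co3 was at 8002 and 4037 CPM in CD4 and 8681 and 4289 CPM in CD8 cells, ratios of -0.99 and -1.02, and mt-Nd1 at 2327 and 1219 CPM and 2623 and 1378 CPM. In contrast, mt-Nd4l was at 301 and 578 CPM in CD4 and 337 and 669 CPM in CD8 cells, and mt-Atp8 at 272 and 495 CPM and 268 and 516 CPM. The nuclear genes of the same chain had medians of 0.05 and 0.03, or -0.13 and -0.15 after centring, with 0 of 73 past 1.5-fold. The median mitochondrial share of UMIs was 4.40% and 2.99% in CD4 and 4.66% and 3.08% in CD8 cells. These transcripts are often read as signs of RNA or cell quality, and their part in the other differences was not tested. Without Gm42418, AY036118, Lars2 and mitochondrially encoded genes in the total, the interferon response medians were 0.63 in CD4 and 0.70 in CD8 cells.

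A few ribosomal protein genes were 1.5-fold apart, the same ones in both gates. Of 80 members with at least 20 CPM, 3 were 1.5-fold lower and 2 higher in each gate, where 0.408% and 0.342% of all genes were lower and 3.27% and 2.8% higher, so the share of higher members is near that of all genes. Beside these counts, the medians were -0.05 and -0.05, or -0.24 and -0.24 after centring. Rpl13a was at 6276 and 3227 CPM in CD4 and 6671 and 3352 CPM in CD8 cells, Rpl5 at 3232 and 1740.1 CPM and 3424 and 1819 CPM, and Rps15 at 3489.7 and 2149 CPM and 3585 and 2074 CPM. The higher pair was Rpl29, at 353 and 566 CPM in CD4 and 332 and 564 CPM in CD8 cells, and Rpl35, at 2208 and 3365 CPM and 2327 and 3554 CPM. Ribosomal protein genes have many near-identical pseudogenes, so counts of single members are uncertain. For several of these genes the vehicle library of day 3 was the one apart. Its Rpl13a level in CD4 cells, 6276 CPM, compares with 2937 and 3337 CPM in the vehicle libraries of days 2 and 4, and its Gm42418 level of 47953 CPM with 15061 and 28628 CPM. For mt-Co3 the vehicle levels of days 2 and 4 were 3429 and 3986 CPM, both under the PPCA level of day 3.

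**Figure D5:**
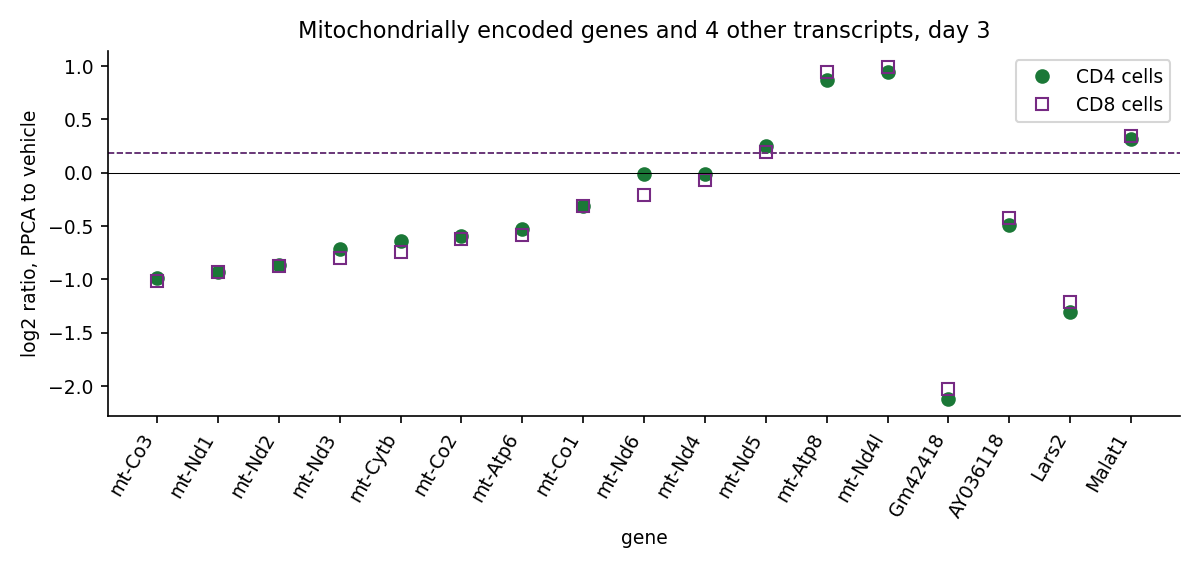
Log2 ratio of PPCA to vehicle on day 3 (vertical axis) for the 13 mitochondrially encoded genes, in order of their ratio in CD4 cells, and for Gm42418, AY036118, Lars2 and Malat1, in CD4 (filled circles) and CD8 cells (open squares). The dashed line is the median gene and the solid line 0. The order is nearly the same in both gates, from mt-Co3 (-0.99 and -1.02) to mt-Nd4l (0.94 and 0.99).

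Single genes outside the lists completed those farthest apart. Rsrp1, an arginine- and serine-rich splicing-related gene, was at 155 (150.2 to 161) and 343 CPM (333 to 353) in CD4 and 131 and 322 CPM in CD8 cells, ratios of 1.14 and 1.30, and the noncoding Gm11808 at 124 and 230.2 CPM and 127 and 244 CPM. Gm26740 was at 25.0 and 50.0 CPM and BC018473 at 48.7 and 90.7 CPM in CD4 cells. Use1, a protein of vesicle transport, was lower, at 140.2 and 81.2 CPM in CD4 and 141 and 84.6 CPM in CD8 cells. Of the 12 highest genes of each gate 9 were shared, and of the 12 lowest 11.

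Pancreatic transcripts, which T cells do not make, had a higher sum under PPCA in CD4 cells, and much of it lay in single cells. The exocrine and endocrine markers summed to 168 CPM under vehicle and 350.3 under PPCA in CD4 cells and to 89.6 and 75.5 CPM in CD8 cells. Of the 18 markers, 12 averaged at least 1 CPM in CD4 cells, 5 of 6 with at least 20 CPM were 1.5-fold higher and 1 lower, where 3.27% and 0.408% of all genes were, and Iapp and Gcg had 0 UMIs in both libraries. Ctrb1, the digestive enzyme precursor chymotrypsinogen B, was among the higher genes in CD4 cells at 44.8 and 116 CPM, a ratio of 1.37. Without the top cell of each gene in each library, those 12 markers summed to 104 and 130.3 CPM, with 7 higher and 5 lower under PPCA, against 11 of 12 higher with it. For Ctrb1, 1 CD4 cell of the PPCA library held 69.0% of its UMIs, and without the top cell of each library the levels were 27.7 and 36.0 CPM and the ratio 0.38. In CD8 cells, 3 of 12 that averaged at least 1 CPM had a ratio above 0, with a median of -0.51, and without the top cells 2 did and the sums were 62.2 and 45.9 CPM. Of all genes that averaged at least 1 CPM, 75.6% in CD4 and 77.9% in CD8 cells had a ratio above 0. No marker reached 20 CPM there, and Ctrb1 was at 19.6 and 15.5 CPM. The part of these transcripts in the other differences was not tested.

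Values of days 2 and 4 are set beside those of day 3 with a limit on the pairs. On day 2 the PPCA library, and on day 4 the vehicle library, had Xist and lacked Y-linked transcripts, while their partners had the reverse, so treatment and the sex of the mice cannot be told apart there. The interferon response median was 1.31 in CD4 and 1.27 in CD8 cells on day 2, 0.72 and 0.78 on day 3, and -0.18 and -0.15 on day 4. The summed level under vehicle was 3065, 2519 and 2139 CPM in CD4 cells on days 2, 3 and 4 and under PPCA 6105, 3710 and 1793 CPM. In CD8 cells it was 3567, 2849 and 2444 CPM under vehicle and 6570.2, 4185 and 2040.0 CPM under PPCA. Of the 29 members with at least 20 CPM, 24 in CD4 and 26 in CD8 cells of the day 3 PPCA library lay above all 3 vehicle libraries, where 16.1% and 18.5% of all genes did. Some of the 29 reached 20 CPM on day 3 only under PPCA. Below all 3 lay 0 and 1 members, and 8.5% and 8.73% of all genes. For Isg15 in CD4 cells the pairs were 37.0 and 155 CPM on day 2, 28.0 and 79.0 CPM on day 3 and 19.9 and 18.8 CPM on day 4. The days were not tested against each other.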

How the data were processed

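Single-cell RNA-seq libraries of sorted pancreatic T cells were read from the deposited filtered 10x matrices, which hold raw UMI counts per gene and cell barcode, made by the authors with Cell Ranger 6.0.0 per the file headers. The submitters' processing notes name Cell Ranger 6.1.2 and Seurat. Of the genome build, annotation and alignment settings the entry is "not given in the sources used here", so genes are named as the files name them, and only the promoter sequences, from RefSeq on GRCm38.p6, carry coordinates.

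From the counts, cells were filtered and gated as the results state, UMIs were summed per gate and library, and scaled to CPM. A count under 3 was raised to 3 before a ratio was formed. Counts of genes use those that reached 20 CPM in either library, so a gene could pass through 1 library alone. List medians use members that averaged at least 1 CPM. With 1 library per group there was no replicate and no test, the depth of each sum is given with the results, and exact 95% Poisson and Clopper-Pearson intervals cover counting error only. The gene lists (21, with 8 marker lists) and the groups compared were chosen with earlier results of these data known, and 3 more lists (sterol, interferon ligands and receptors, RNA quality) were added after values were seen. Named genes were the 12 highest and 12 lowest of each gate with at least 50 CPM, without antigen receptor segments and gate genes, the interferon response members past 1.5-fold, the most abundant 2 to 4 members of the other lists with those past 1.5-fold, and Cdkn1a, Mdm2, Ccng1, Mki67, Trp53 and Wee1. Other genes named were chosen after their values were seen, and some genes the rule would name are not reported here. Scrublet's own threshold called 1 vehicle and 2 PPCA cells as doublets, which is too few to have worked, so no doublets were removed, and an alternative left out the top-scoring 981 and 519 cells. The steps were tested on simulated data. There were 19 alternatives, with 3 added later. The 2 libraries of mice with active and onset diabetes were not used. Tools were Python 3.11.15, scanpy 1.11.5, numpy 2.4.6, scipy 1.17.1, pandas 2.3.3, matplotlib 3.10.9, R 4.3.3, edgeR 4.0.16 for TMM factors and DESeq2 1.42.0 for size factors.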

Additional observations from a re-analysis of the deposited data

Results flagged for a closer look

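With 1 library per group a sample far from its group could not be looked for. The results here are list medians and genes of the naming rule that were at least 1.5-fold apart on day 3 and at least 1.2-fold apart the other way on another day or in the other gate, and results from cells outside the gates. The interferon response median also turned, to -0.18 and -0.15 on day 4, which is under that size. None of these differences was tested, and on days 2 and 4 treatment and the sex of the mice cannot be told apart.

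The median of the sterol list in CD4 cells was 0.60 on day 3, -0.53 on day 2 and -0.30 on day 4. Gm11808 had a ratio of 0.89 in CD4 and 0.94 in CD8 cells on day 3, and of -0.42 and -0.46 on day 2. Rnf213, a large ubiquitin ligase, had 0.88 in both gates on day 3, and -0.50 in CD4 and -0.56 in CD8 cells on day 4. In CD8 cells Gm20559 had 1.00 on day 3 and -0.42 on day 4, and Ifi27l2a 0.89 and -0.41. Of the lower genes in CD4 cells, Fosb had -1.48 on day 3 and 0.78 on day 4, and S100a4 -0.95 and 1.26. Ctrb1 had 1.37 in CD4 and -0.34 in CD8 cells on day 3.

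Other results of the report also turned. Of those given next, Dnaja1 and Ifngr2 met that rule as list members past 1.5-fold, and the rest lay outside it. Some genes that met the rule are not listed here. In CD4 cells on days 3 and 4, Hspa1b had 3.19 and -1.37, Hspa1a 1.90 and -1.95, Dnaja1 0.76 and -0.38, Ifngr2 0.68 and -0.49, and Dusp4 -0.72 and 0.77. The heat shock median in CD4 cells was 0.38 on day 3 and -0.39 on day 4, and in CD8 cells 0.33 and -0.38.

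T cells outside both gates also had the interferon response higher under PPCA. In those with none of Cd4, Cd8a and Cd8b1 the list summed to 2512 CPM under vehicle and 3718 under PPCA, and in those with Cd4 and a CD8 gene together to 2677 and 3837 CPM.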

How the results depend on the processing

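No paired analysis was possible because each group had 1 library, and for the same reason no replicate could be left out. Of the 88 ratios and medians at least 1.5-fold apart, 0 changed sign under the alternatives run. Alternatives that only rescale the totals could not have turned them. They shift all genes alike, by no more than the offset of the median gene, 0.18 in CD4 and 0.19 in CD8 cells. Of the 48 list medians 25 changed sign under at least 1 alternative, all of lists other than the interferon response, among them MHC class I presentation in both gates. The balance of higher and lower genes also turned, as given below. The interferon response median (0.72 in CD4 and 0.78 in CD8 cells) was 0.54 and 0.60 with TMM or DESeq2 factors, 0.68 and 0.74 with ribosomal protein and mitochondrially encoded genes out of the total, 0.68 and 0.73 with cells under 5% mitochondrial UMIs, 0.64 and 0.71 over members with at least 10 CPM, and 0.56 and 0.55 as the ratio of the summed list. It was 0.74 in CD4 cells with at least 2 UMIs for the gate or as a mean of per-cell CPM, 0.82 in CD8 cells without other lineages and doublets, and 0.72 in CD8 cells thinned to 2000 UMIs. Genes 1.5-fold higher and lower (176 and 22 in CD4, 147 and 18 in CD8 cells) were 51 and 50, and 37 and 46, with TMM or DESeq2 factors, so the share of higher genes among them went from 88.9% to 50.5% in CD4 and from 89.1% to 44.6% in CD8 cells. Without a filter on low values they were 5307 and 794 in CD4 and 5269 and 777 in CD8 cells, and at 2-fold 17 and 3, and 10 and 4. Higher genes numbered 306 and 269 at 10 CPM, 68 and 63 at 50 CPM, and 236 in thinned CD8 cells.

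Of alternatives chosen after seeing the data, centring gave 47 and 51 genes with a median of 0.53 in CD4, and 37 and 47 with 0.60 in CD8 cells. A total without Gm42418, AY036118, Lars2 and mitochondrially encoded genes gave 101 and 77 higher genes and medians of 0.63 and 0.70. The share of cells with at least 3 interferon response UMIs, given as vehicle and PPCA, was 40.7% and 53.6% in CD4 and 49.8% and 59.97% in CD8 cells at 1000 UMIs, 91.99% and 94.5% and 95.6% and 97.1% at 3000 UMIs, and 46.2% and 60.01% and 57.9% and 67.2% with at least 5 UMIs. It was 84.8% in vehicle CD8 cells without other lineages and doublets. For single genes and lists, 719 of 1751 values moved by more than their counting interval. The cause of these shifts was not tested. Depth limits the genes of few UMIs, such as Cdkn1a and Mki67.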
